A study of Homo sapiens and Mus musculus with 56 samples.

Results

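Chemokines are small secreted or membrane-anchored proteins that attract leukocytes along a gradient, and each binds 1 or more receptors of a shared family. Ligands with a Glu-Leu-Arg motif before the first cysteines (ELR ligands such as CXCL8) act on neutrophils through CXCR1 and CXCR2, CCL2 and its relatives draw monocytes through CCR2, and CXCL9, CXCL10 and CXCL11 are induced by interferon and bind CXCR3. CX3CL1 and CXCL16 are made as membrane proteins and are shed from the cell surface. Glioblastoma cells are known to release several of these proteins, and the macrophages and fibroblasts of a tumour make others.

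The genes described here are the chemokine ligands of tumour and host, taken by symbol from the probe sets that name 1 gene: every CXCL, CCL, XCL and CX3CL symbol, with CXCL8 counted also under its old name. There were 37 such genes among 18417 genes on the human arrays and 34 among 19938 on the mouse arrays. Probe sets that name several genes, 8 human and 7 mouse ones with a chemokine, were left out. The study used 5 human glioblastoma lines, U87M2, U118, SF295, DBM2 and U251M2, and the compound V-4084, which the labels describe as an inhibitor of the MET receptor kinase. The labels give 28 human arrays to cells grown in culture for 7 days with V-4084, from a stock of 0.01 M, or with dimethyl sulfoxide as vehicle. They state no final concentration. Another 28 mouse arrays are labelled as flank tumours that these lines formed in nude mice, which received V-4084 at 30 mg per kg or a vehicle with Tween detergent for 7 days. Nude mice lack a thymus and so have few T cells, and each line stands for 1 human tumour. Groups had 3 arrays each. The exceptions, with 2, were both human SF295 groups, the mouse V-4084 group of U251M2 and the mouse vehicle group of SF295. Nothing in the labels says that repeats were separate cultures or animals, so p-values measure the spread between these arrays, which may be technical.

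Human array medians lay between 6.63 and 6.87 and mouse ones between 6.11 and 6.31 (log2 intensity), and the nearest array to each of the 56 was of its own line. On 3 human V-4084 arrays the title names DBM2 and the source field SF295, and the title was followed. A narrow range of values was found on 3 human V-4084 arrays (DBM2 repeat 2, U251M2 repeat 1 and SF295 repeat 2), with a standard deviation (SD) over probe sets of 1.75 to 1.90, against at least 2.02 on the other human arrays. Many human members were dim. Olfactory receptor genes, which these cells are not known to use, gave a guide to a dim level (the 95th percentile of their group means) of 6.39 on human and 6.08 on mouse arrays. No group mean passed that level for 19 of the 37 human members and 7 of the 34 mouse members. Over all genes, 14119 of 18417 human and 13933 of 19938 mouse genes had a group mean above it.

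Promoter sequences are shown for the ligands whose start region holds a match to an NF-kB motif, since NF-kB is a known activator of CXCL8 and of several related genes. RefSeq (GRCh38.p14) promoters, from 250 bases before to 50 bases after the start, were matched for 27 of the 37 human members. CXCL8 was one of the members that V-4084 lowered in U87M2, and its promoter lies at chr4:73740319-73740618 on the plus strand. Capitals mark a match to an AP-1 motif (TGA and TCA with any base between them) and a match to GGANTTTCC (an NF-kB motif), which begin at positions -137 and -91 relative to the start.

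CXCL8 promoter: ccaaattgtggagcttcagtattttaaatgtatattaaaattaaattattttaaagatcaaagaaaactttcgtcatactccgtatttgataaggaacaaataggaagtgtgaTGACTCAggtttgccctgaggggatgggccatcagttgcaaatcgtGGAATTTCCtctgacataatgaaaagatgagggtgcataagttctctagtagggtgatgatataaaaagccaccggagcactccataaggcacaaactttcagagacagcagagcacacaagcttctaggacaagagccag

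The same NF-kB motif, GGANTTTCC searched on both strands, was found in 8 of the 27 member promoters and in 577 of 35116 RefSeq promoters (1.64%). The AP-1 motif, also searched on both strands, was found in 6 of the 27 and in 2707 of all promoters (7.71%). Windows of 29 bases around the NF-kB match follow, with the match in capitals, each written 5′ to 3′ on the strand of its gene.
CXCL1 (chr4:73869305-73869333, plus strand): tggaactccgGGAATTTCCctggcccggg
CXCL2 (chr4:74099254-74099282, minus strand): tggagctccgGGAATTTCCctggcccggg
CXCL3 (chr4:74038749-74038777, minus strand): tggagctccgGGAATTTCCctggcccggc
CXCL5 (chr4:73998749-73998777, minus strand): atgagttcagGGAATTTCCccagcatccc
CXCL6 (chr4:73836579-73836607, plus strand): ctgagttcagGGAATTTCCccagcatccc
CXCL8 (chr4:73740468-73740496, plus strand): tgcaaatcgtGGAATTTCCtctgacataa
CXCL10 (chr4:76023655-76023683, minus strand, match read on the opposite strand): aggagcagagGGAAATTCCgtaacttgga
CXCL11 (chr4:76036127-76036155, minus strand, match read on the opposite strand): actcaaagagGGAAATTCCtgtgccataa
A match describes these letters only and is no evidence that a factor bound there. Of these 8 genes, only CXCL8 passed the test for V-4084 in a single line.

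Without V-4084, the human lines differed most in CCL2, the monocyte attractant, and CXCL12, the ligand of CXCR4. CCL2 averaged 12.25 ± 0.18 in U251M2, 11.94 ± 0.16 in SF295, 9.88 ± 0.20 in DBM2, 8.18 ± 0.23 in U87M2 and 7.31 ± 0.10 in U118 (log2 intensity, SD, n = 3, and 2 for SF295). Every neighbouring pair of lines in that order differed except U251M2 and SF295 (SF295 minus U251M2 -0.30, adjusted p = 0.154 in limma). CXCL12 ran in another order. It averaged 9.58 ± 0.14 in U118, 8.98 ± 0.23 in U251M2, 7.38 ± 0.11 in SF295, 5.91 ± 0.06 in DBM2 and 5.73 ± 0.08 in U87M2, and only the neighbours DBM2 and U87M2, both under the dim level, did not differ in the test (adjusted p = 0.368).

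In limma's F test over the 5 vehicle groups, 15 of the 37 human members differed between lines, or 40.5%, against 58.4% of all human genes. SF295, with 2 vehicle arrays, was the highest line for 10 of these 15 genes. Of these 10, CXCL6, CXCL10 and CXCL11 stayed under the dim level in every group. In SF295, CCL11 averaged 6.42 and CXCL3 averaged 6.62, both little above that level. How often SF295 was highest over all human genes was not counted. The neutrophil attractant CXCL8 averaged 7.91 ± 0.73 in SF295 (n = 2) and 6.02 ± 0.19 in U251M2 (n = 3). All 3 U251M2 vehicle arrays lay under the dim level, so the span was at least 1.51 (log2), taken to that level. All 4 pairs of U251M2 with another line differed in CXCL8 (adjusted p at most 2.07e-05), and no pair among the other 4 lines did. CX3CL1, the membrane ligand of CX3CR1, was highest in SF295 (8.62 ± 0.14) and lowest in U87M2 (6.87 ± 0.16). CXCL16, the membrane ligand of CXCR6, was highest in U251M2 (7.78 ± 0.08) and had its lowest mean in U87M2 (6.27 ± 0.13), under the dim level. The interferon-induced CXCL10 also differed between lines in the test and stayed under the dim level in every group. CCL5, which attracts T cells and monocytes, was highest in SF295 at 7.53, at least 1.13 above DBM2, whose mean lay under the dim level. CXCL14, expressed in many epithelia, spanned 1.58, also with SF295 highest.

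On the mouse arrays, 25 of 34 members differed between the vehicle tumours of the 5 lines in the F test, or 73.5%, against 54.3% of all mouse genes. SF295 or U118 tumours were highest for 7 of the 8 with the widest span. How often these lines were highest over all mouse genes was not counted. Ccl12, a mouse ligand of Ccr2, averaged 8.08 in SF295 tumours and 5.55 in DBM2 tumours (F test adjusted p = 1.72e-07). All 3 DBM2 vehicle arrays lay under the mouse dim level, so the span was at least 2.00. Cxcl9, an interferon-induced ligand of Cxcr3, averaged 9.15 ± 0.78 in U118 tumours and 6.76 ± 0.81 in U87M2 tumours. Ccl5 averaged 9.66 ± 0.64 in U118 tumours and 7.52 ± 0.23 in DBM2 tumours. Ccl17, a ligand of Ccr4, spanned 2.27 between the same lines.

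Cxcl13, which attracts B cells, spanned at least 2.03 between SF295 tumours and U251M2 tumours, whose mean lay under the dim level. Ccl3, a macrophage inflammatory protein, spanned 1.87 between SF295 and U87M2 tumours. Ccl8 spanned 1.81 between U118 and U251M2 tumours. Ccl11, which attracts eosinophils, was highest in DBM2 tumours (9.20 ± 0.13), and the other 4 lines had means of 7.37 to 7.84. Without the DBM2 line the Ccl11 difference was no longer called (adjusted p = 0.197). Cxcl12 was highest in U118 tumours, at 7.07, and lowest in U87M2 tumours, at 6.16. Cxcl1, a ligand of Cxcr2, did not pass (adjusted p = 0.135). In bulk samples, fewer cells of a type and less RNA per cell cannot be told apart.

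Markers of other host cells also differed between the vehicle tumours in the F test. All 12 macrophage markers were called, and their mean level was 9.77 in SF295, 9.64 in U118, 8.88 in U87M2, 8.63 in U251M2 and 8.53 in DBM2 tumours (log2 intensity). All 8 dendritic cell markers were called, with means of 7.76 in U118, 7.32 in SF295, 7.20 in U251M2, 6.86 in DBM2 and 6.85 in U87M2 tumours. SF295 and U118 tumours thus had the highest means of both lists. All 10 endothelial and all 10 fibroblast markers were called too, with other orders of the lines. Endothelial means were highest in U87M2 tumours (8.574, against 8.035 in SF295) and fibroblast means in DBM2 tumours (9.695, against 8.994 in SF295). Natural killer and T cell, skeletal muscle and adipocyte means were highest in U118 tumours (6.065, 9.255 and 7.935). The natural killer and T cell means lay under the mouse dim level in every line, and the U118 arrays ran from 5.752 to 6.262. The part of these markers in the chemokine levels was not tested.

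**Figure D1:**
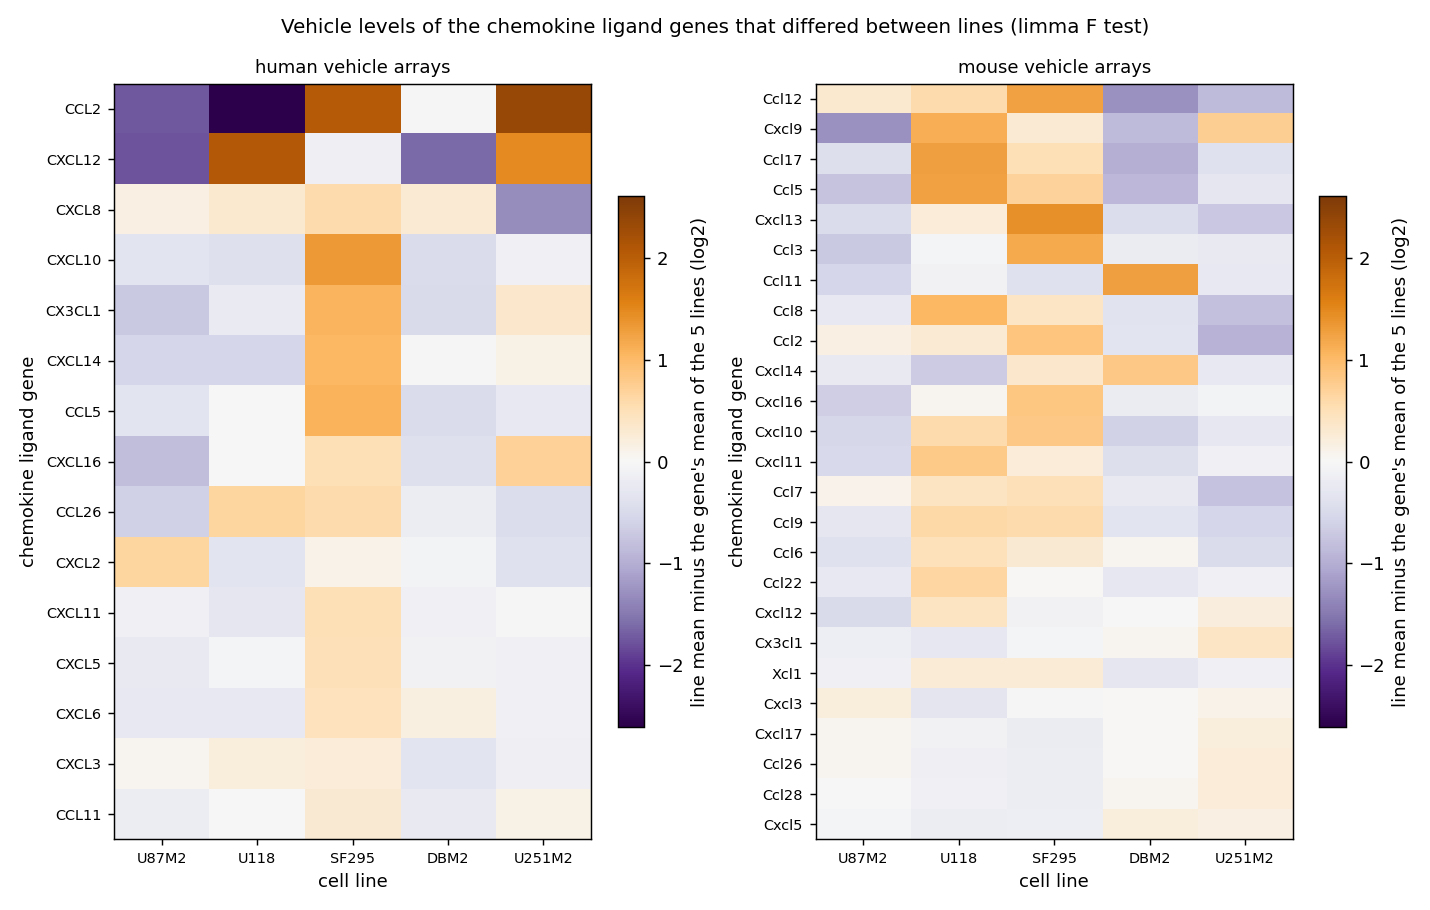
Vehicle levels of the members that differed between lines (15 human genes at left, 25 mouse genes at right); colour gives the line mean minus the mean of the 5 lines (log2), with genes ordered by their measured span, in which values under the dim level count as measured. CCL2 and CXCL12 have the widest measured spans on human arrays, and SF295 or U118 tumours are highest for 7 of the 8 widest on mouse arrays.

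V-4084 changed 4 human members in U87M2. CXCL8 and CCL2 fell, and the membrane ligands CX3CL1 and CXCL16 rose. That is 4 of 37 members, against 15% of all human genes called in this contrast (5.37% higher and 9.62% lower). The members' median difference was 0.06, against 0.02 over all genes.

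CXCL8 measured 5.97, 5.74 and 6.01 on the V-4084 arrays of U87M2, against 7.32, 7.95 and 7.16 on its vehicle arrays. All 3 V-4084 arrays lay under the dim level. The level fell by at least 1.08 (log2, taken to the dim level), or at least 2.12-fold (limma on the measured values, adjusted p = 4.19e-05). CCL2 measured 7.14, 7.35 and 7.47 with V-4084, against 8.45, 8.07 and 8.02 with vehicle. It fell by 0.86 (SE 0.14), or 1.81-fold (adjusted p = 4.74e-05). CXCL8 and CCL2 did not overlap between treatments.

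CX3CL1 measured 7.67, 7.80 and 7.62 with V-4084, against 7.02, 6.70 and 6.88 with vehicle, and rose by 0.83 (SE 0.13, adjusted p = 7.03e-05). CXCL16 measured 6.93, 6.88 and 6.86 with V-4084, against 6.42, 6.22 and 6.18 with vehicle, and rose (adjusted p = 0.000556). On 2 of the 3 vehicle arrays CXCL16 lay under the dim level, so the increase was at least 0.49 (log2). Neither gene overlapped between treatments. All 4 calls in U87M2 held in every alternative run, with adjusted p up to 0.00636.

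Of the other ELR ligands, CXCL2 was 0.41 lower with V-4084 and did not pass (SE 0.17, adjusted p = 0.103). CXCL1 was 0.14 lower and CXCL3 0.26 lower, neither past the test, and CXCL5 and CXCL6 differed by -0.03 and 0.02. CCL7, which shares CCR2 with CCL2, differed by -0.13 (adjusted p = 0.748).

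Among genes of the pathway in U87M2, 0 of 16 chemokine receptors passed, with 3 at an unadjusted p under 0.05. Of 11 NF-kB subunits and inhibitors 3 fell: BCL3, a nuclear cofactor of NF-kB, fell by 0.59, NFKBIZ, another one, fell by 0.43, and NFKBIB, an inhibitor, fell by 0.37. Of 10 cytokines that induce chemokines 2 passed. IL6 fell by 1.41 (adjusted p = 5.96e-05) and IL1B fell by 0.62. IRF1, an interferon-response factor, fell by 0.74, the single call among 4. CCRL2 fell by 0.43, the single call among 5 atypical receptors. Only 5 of the 16 chemokine receptors, 4 of the 10 cytokines and 2 of the 5 atypical receptors passed the dim level in any group. Of all human genes, 15% were called in this contrast, with 9.62% called lower.

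Some genes listed as markers of other cell types also changed in the same contrast. All 10 fibroblast markers rose, with a median of 1.09, and their mean level ran from 10.63 to 10.68 on V-4084 arrays and from 9.38 to 9.83 on vehicle arrays. None was under the dim level in every group. On these arrays, labelled as cultured tumour cells, the vehicle mean of the list ran from 7.911 in U251M2 to 11.138 in U118. A rise of the list is therefore no measure of fibroblast number here. Of 10 endothelial markers, 1 rose and 2 fell. Among neutrophil markers 1 of 9 rose, among natural killer and T cell markers 1 of 12 rose, and among glioblastoma and glial markers 1 of 10 fell. Of 12 macrophage markers, 1 fell, with mean levels of 6.23 to 6.38 on V-4084 arrays and 6.23 to 6.30 on vehicle arrays. Only 5 of the 10 endothelial and 4 of the 9 neutrophil markers passed the dim level in any group. So did 6 of the 12 natural killer and T cell and 7 of the 12 macrophage markers. In U87M2 the mean levels of the endothelial, neutrophil, natural killer and T cell and macrophage lists lay under it with either treatment. The part of these markers in the chemokine results was not tested.

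In U118, CCL2 went the other way. It measured 8.03, 8.03 and 7.91 with V-4084, against 7.32, 7.20 and 7.40 with vehicle, and rose by 0.68 (SE 0.14, adjusted p = 0.0136, 1.61-fold). This was 1 of 37 members, against 0.755% of all human genes (0.109% higher). Its call was lost without U118 vehicle repeat 2 or 3 or V-4084 repeat 1 or 3, and with a replicate block (adjusted p up to 0.114), while the difference stayed between 0.63 and 0.74. CXCL12, bright in this line, measured 10.15, 10.02 and 9.97 with V-4084, against 9.73, 9.45 and 9.56 with vehicle, a difference of 0.47 that did not pass (adjusted p = 0.125).

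No member passed in SF295, DBM2 or U251M2, where limma called 0% of all human genes in each line. At an unadjusted p under 0.05 there were 4, 11 and 1 members in those lines, in that order, among 1581, 4920 and 1110 genes. CXCL8 in SF295 measured 8.80 and 8.65 with V-4084, against 8.42 and 7.39 with vehicle (difference 0.82, adjusted p = 0.511). CXCL8 in U251M2 measured 7.09, 6.63 and 6.12 with V-4084, against 5.86, 6.24 and 5.96 with vehicle (difference 0.60, adjusted p = 0.721). CX3CL1 in DBM2 measured 7.64, 7.74 and 7.46 with V-4084, against 7.21, 7.07 and 6.92 with vehicle, without overlap, and did not pass (difference 0.55, adjusted p = 0.111).

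**Figure D2:**
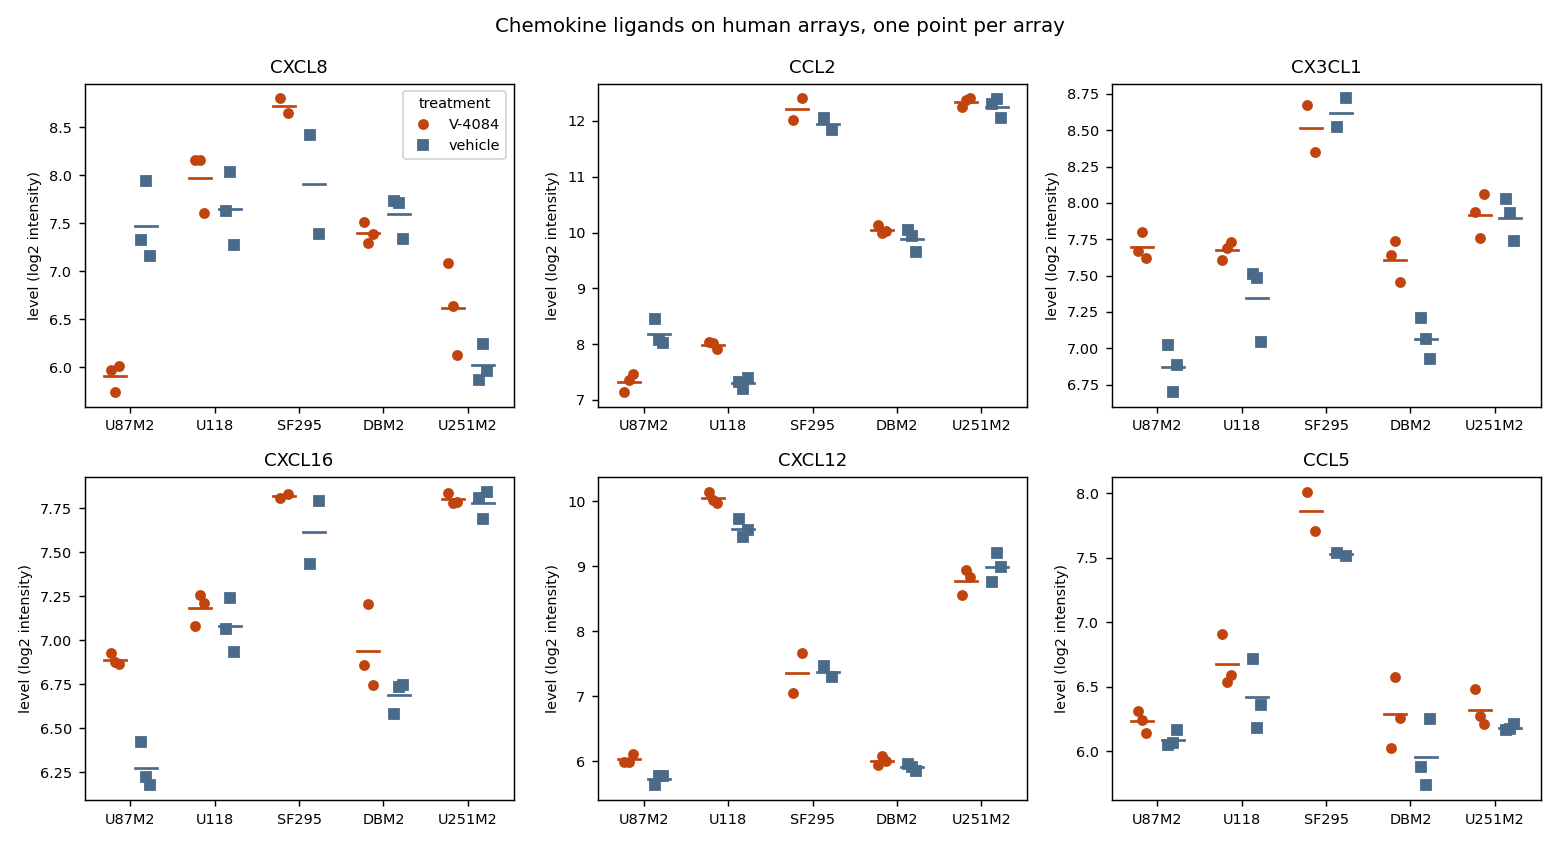
Levels of 6 chemokine ligands on human arrays (log2 intensity, vertical axis) by line, with 1 point per array, V-4084 as circles left of vehicle as squares, and short bars for group means. In U87M2, CXCL8 and CCL2 are lower and CX3CL1 and CXCL16 higher with V-4084, without overlap.

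The size of the V-4084 difference varied between lines for 3 human members, against 5.53% of all genes by limma's F test. They were CCL2 (adjusted p = 8.17e-05), CXCL8 (adjusted p = 0.000308) and CX3CL1 (adjusted p = 0.0152). Without the U87M2 line limma called none of the 3 (adjusted p = 0.714 for each) and 0 of all human genes, against 1019 with it, with 1256 genes and 4 members at an unadjusted p under 0.05. The call of CX3CL1 was also lost without U87M2 V-4084 repeat 2 and with a replicate block. CXCL16 did not pass (adjusted p = 0.16).

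Averaged over the 5 lines, 5 of 37 members changed, all higher with V-4084, against 11.6% of all human genes called and 3.38% called higher. CX3CL1 rose by 0.32 (SE 0.06, adjusted p = 0.00238, higher in 4 of 5 lines) and CXCL16 by 0.24 (SE 0.06, adjusted p = 0.00875, higher in 5 of 5). CCL5 rose by 0.24 (SE 0.07, adjusted p = 0.029). CXCL10 rose by 0.26 (adjusted p = 0.0206) and CCL8, another CCR2 ligand, by 0.34 (adjusted p = 0.0314), and both lay under the dim level in every group. The last 3 were each higher in 5 of 5 lines. For CCL5, the means of both treatments lay under the dim level in U87M2, DBM2 and U251M2.

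Without the U87M2 line all 5 lost the call, with differences of 0.20 for CX3CL1, 0.15 for CXCL16, 0.29 for CXCL10, 0.27 for CCL5 and 0.39 for CCL8. In that fit limma called 0 of all human genes, against 2138 with the line, and 15 members and 3412 genes were at an unadjusted p under 0.05. CXCL10 was also lost without SF295 V-4084 repeat 2, without the 3 narrow-range arrays and after quantile normalization, and CCL5 and CCL8 were lost when any of several single arrays was left out. Without the 3 narrow-range arrays the CXCL10 average was 0.15 (adjusted p = 0.0854).

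In all, 34 of 37 members had a positive average, with a median of 0.12 against 0.02 over all genes. Without the 3 narrow-range arrays, 26 of 37 were positive, with a median of 0.04 against 0.01 over all genes. One of those arrays, DBM2 V-4084 repeat 2, read 6.01 for CCL8, against 4.84 and 4.65 on the other V-4084 arrays of that line. For CCL7 it read 5.86, against 4.99 and 5.07. All of these values lay under the dim level. Of the 10 fibroblast markers, 3 rose in the average, and their part was not tested.

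**Figure D3:**
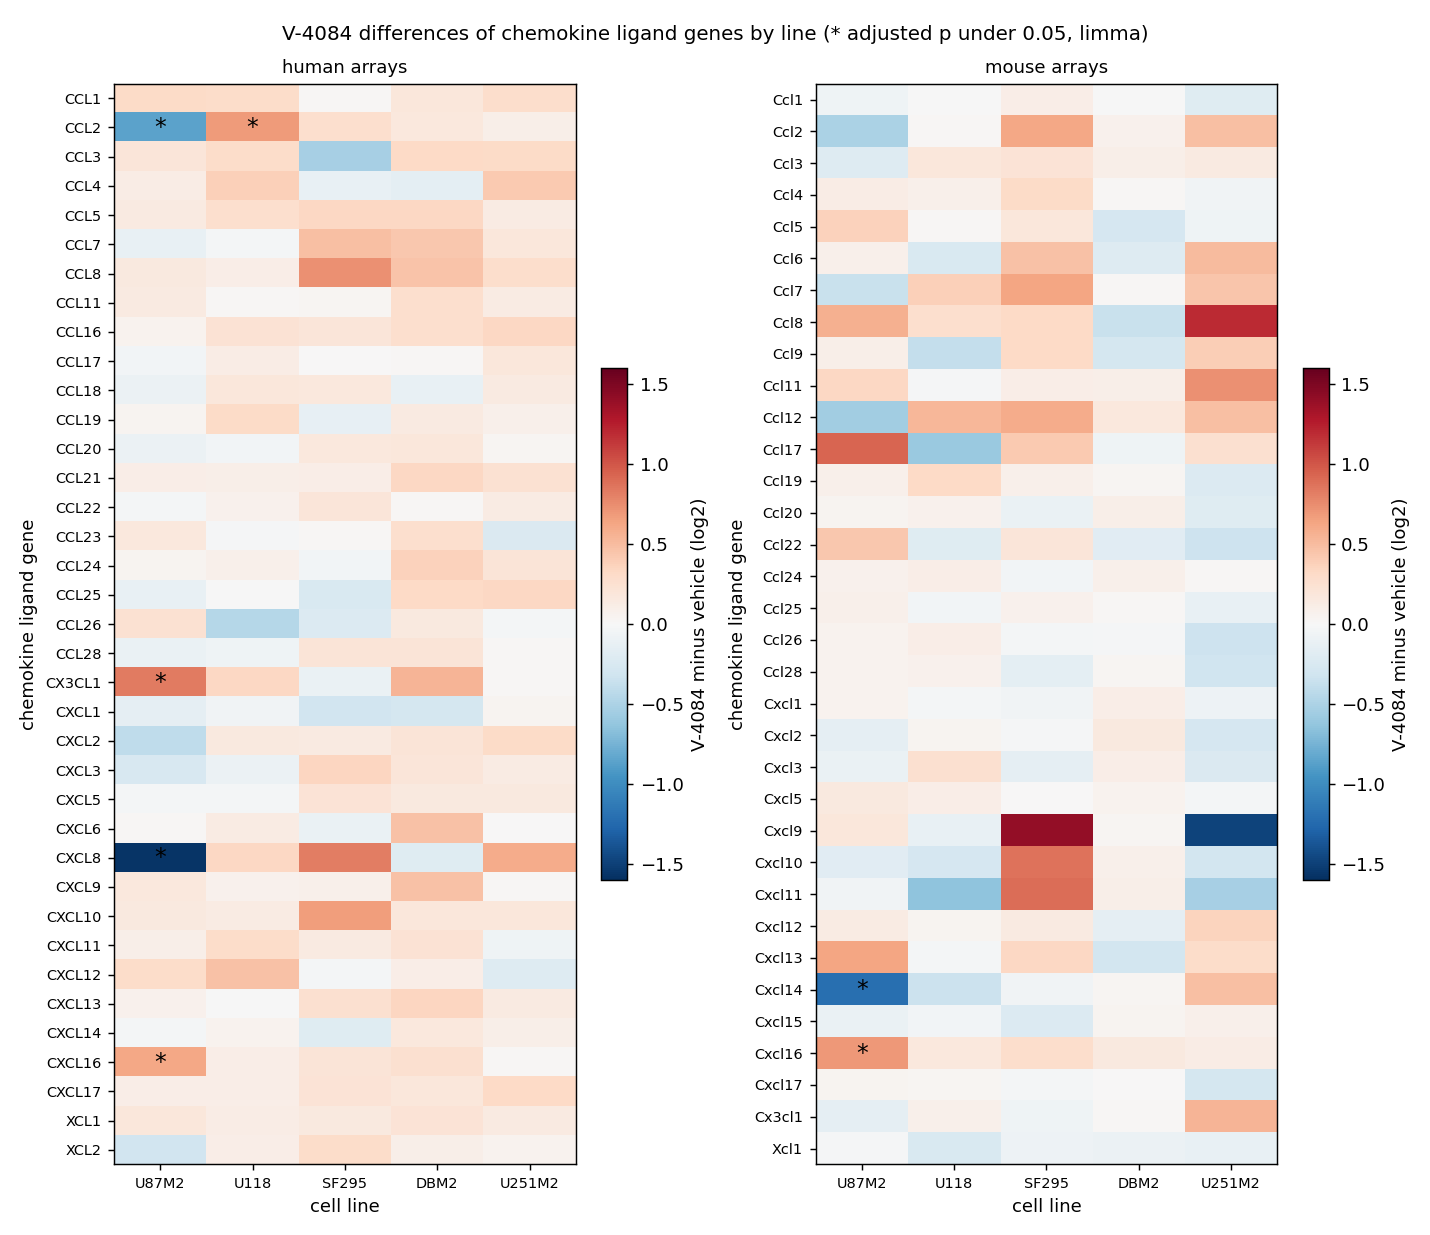
Difference V-4084 minus vehicle (log2, colour) of every member by line, human arrays at left and mouse arrays at right; an asterisk marks an adjusted p under 0.05. Asterisks stand in U87M2 for 4 human and 2 mouse genes and in U118 for human CCL2.

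On mouse arrays, V-4084 changed 2 of 34 members, both in U87M2 tumours, against 3.72% of all mouse genes (2.49% higher and 1.22% lower). Cxcl14, which attracts monocytes and dendritic cells, fell. It measured 7.64, 7.45 and 7.24 in V-4084 tumours, against 8.69, 8.33 and 8.91 in vehicle tumours, and fell by 1.20 (SE 0.18, adjusted p = 0.000177, 2.30-fold). Cxcl16 rose, at 9.33, 9.03 and 8.83 in V-4084 tumours, against 8.27, 8.51 and 8.33 in vehicle tumours. The increase was 0.69 (SE 0.14, adjusted p = 0.005, 1.61-fold) and was lost without U87M2 V-4084 repeat 1 (adjusted p = 0.0541).

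CXCL16 thus passed in U87M2 on both platforms, and whether the 2 calls are separate was not tested. Same-numbered human and mouse arrays moved together in muscle and macrophage markers (below), and correlated at r = -0.150 for CXCL16. Whether RNA of the human tumour cells added to the mouse array signal was not tested either. Ccl2 in U87M2 tumours measured 7.12, 7.69 and 7.63 with V-4084, against 7.90, 8.18 and 7.88 with vehicle, without overlap, and did not pass (difference -0.51, adjusted p = 0.0667). Ccl12 and Ccl7, which share Ccr2 with it, differed by -0.55 and -0.36 (adjusted p = 0.282 and 0.291). Cx3cl1 differed by -0.15 (adjusted p = 0.757).

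Of 17 mouse receptors in U87M2 tumours, Cxcr4 rose by 0.55 and Ccr2, the receptor of Ccl2, fell by 0.88 (adjusted p = 0.0231). The scavenger receptor Ackr3 fell by 0.41. Of 12 macrophage markers 5 rose, with a list median of 0.38 and mean levels of 8.95 to 9.42 in V-4084 tumours and 8.84 to 8.90 in vehicle tumours. Of 10 endothelial markers 2 rose and 1 fell, of 8 dendritic cell markers 1 rose, and of 10 glial markers 1 fell. In limma 0 of 10 fibroblast markers passed (4 at unadjusted p under 0.05), and 0 of 14 skeletal muscle markers did (0 at unadjusted p under 0.05, list median -0.77). Their part in the chemokine results was not tested.

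No mouse member passed in U118, SF295, DBM2 or U251M2 tumours, where limma called 0.01%, 0.01%, 0% and 0.0401% of all mouse genes. Members at an unadjusted p under 0.05 numbered 5, 7, 0 and 12 in that order of lines, among 1355, 1341, 458 and 2670 genes. In SF295 tumours the 3 interferon-induced ligands had positive differences that did not pass, 1.40 for Cxcl9, 0.87 for Cxcl10 and 0.89 for Cxcl11 (adjusted p = 0.711, 0.722 and 0.671). Cxcl9 there measured 10.35, 9.60 and 9.18 with V-4084, against 8.08 and 8.53 with vehicle, and in U251M2 tumours 7.37 and 7.17 with V-4084, against 7.55, 8.98 and 9.75 with vehicle. The U251M2 difference of -1.49 did not pass either (adjusted p = 0.256).

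Ccl8 in U251M2 tumours measured 8.47 and 8.70 with V-4084, against 8.29, 7.28 and 6.58 with vehicle (difference 1.20, adjusted p = 0.269). Ccl11 in the same tumours was at 8.38 and 8.44 with V-4084, against 7.81, 7.68 and 7.54 with vehicle (difference 0.73, adjusted p = 0.244). Averaged over the lines 0 of 34 passed, against 0.0702% of all genes (limma, with 7 members and 1923 of all 19938 genes below 0.05 before adjustment). Cxcl16 was higher in 5 of 5 lines in that average, by 0.28 (adjusted p = 0.107). The F test of differences between lines called Cxcl14 alone (adjusted p = 0.0124), against 0.341% of all mouse genes. Its call was lost without the U87M2 line, with a replicate block, and without U87M2 vehicle repeat 1, vehicle repeat 3 or V-4084 repeat 2.

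**Figure D4:**
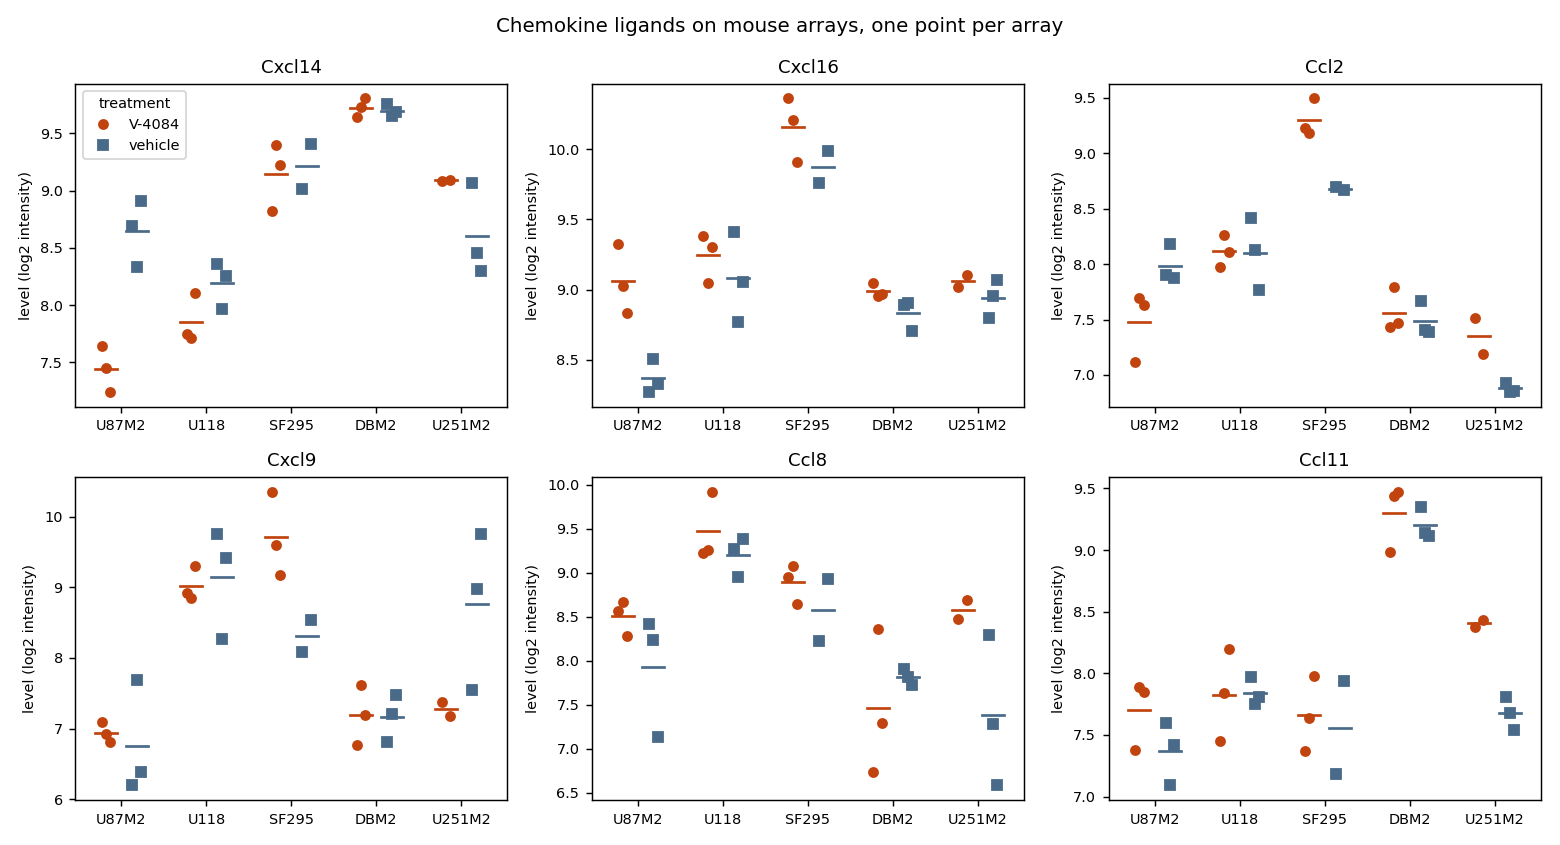
Levels of 6 chemokine ligands on mouse arrays (log2 intensity, vertical axis) by line, with 1 point per array, V-4084 as circles left of vehicle as squares, and short bars for group means. Cxcl14 is lower and Cxcl16 higher with V-4084 in U87M2 tumours, and Ccl11 is highest in DBM2 tumours.

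Human and mouse arrays of a group carry the same repeat numbers, and the deviations of 27 same-numbered pairs from their group means were compared. Of 30 chemokine symbols present on both platforms, none correlated at an adjusted p under 0.05 (100000 permutations within groups), and 1 did at an unadjusted p under 0.05 (CCL7, r = 0.355, rho = 0.477, permutation p = 0.0451, adjusted p = 0.818). Pearson's r ran from -0.316 to 0.418 with a median of 0.078. These r values were for single genes, many of them dim, and cannot show that members share no signal across platforms. The mean over the list of skeletal muscle markers correlated at r = 0.967 (rho = 0.948, permutation p = 7e-05, adjusted p = 0.00021 over 3 lists), and at 0.952 without the 2 pairs farthest from the median. The fibroblast markers reached r = 0.665 (rho = 0.498, adjusted permutation p = 0.0637) and 0.340 without those pairs, and so did not hold. The macrophage markers correlated at r = 0.498 (rho = 0.464, adjusted permutation p = 0.0165) and at 0.475 without those pairs. Muscle and macrophage marker signal on arrays labelled as cultured human cells thus moved with that on the mouse arrays of the same number, which the labels do not account for, and whether the human arrays also hold host RNA was not tested.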

How the data were processed

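RNA was hybridised to Affymetrix gene arrays. Deposited are log2 intensities per probe set, for which the submitters' processing notes name RMA and Partek without versions. No further normalization was applied. Where several probe sets named a gene, the brightest on average was taken. For each platform, limma 3.58.1 (R 4.3.3) fitted the means of 10 groups (18 residual degrees of freedom) over all genes, with contrasts for each line, for the average of the 5 lines with equal weights, and F tests for differences between lines. Adjusted p-values are two-sided, by Benjamini-Hochberg over all genes of a contrast, and a gene at an adjusted p under 0.05 was called. SE is limma's standard error. The fit was tested on simulated data. Correlations used Python 3.11.15 with NumPy 2.4.6. For arrays there is no depth, and their number limits the precision.

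The members, lists and tests were chosen with earlier results of these data known, as were the alternatives without the U87M2 line and without the 3 narrow-range arrays. Genes named were every called member, the 8 with the widest called vehicle span, and CXCL8, CXCL12 and CCL2 on human and Cxcl1, Cxcl12 and Ccl2 on mouse arrays. Other members are given as values only and were chosen after their values were seen. Human and mouse arrays were not fitted together. Alternatives were a filter on dim genes, quantile normalization, a trend with robust fitting, array weights, the mean of all probe sets of a gene, a replicate block, the arrays of 1 line alone, lines left out, and each array left out.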

Additional observations from a re-analysis of the deposited data

Results flagged for a closer look

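The V-4084 difference varied between lines, by limma's F test, for human CCL2 (adjusted p = 8.17e-05), CXCL8 (adjusted p = 0.000308) and CX3CL1 (adjusted p = 0.0152) and for mouse Cxcl14 (adjusted p = 0.0124). PF4, a platelet chemokine whose symbol lies outside the rule for members, was 0.19 higher with V-4084 in the human average (SE 0.05, adjusted p = 0.0407 in a limma fit over all probe sets, chosen after the data were seen). Its unrounded log2 difference was 0.193, and its mean over the human arrays was 5.94, under the dim level.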

How the results depend on the processing

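Of 129 recomputed values other than those with a single array left out, nearly all of them counts of called members, 115 stayed close to the reported one (a count within 1.5 times). A count of 0 that stayed 0 was taken as close, and the reported count was 0 in several lines on both platforms. The human average had 3 called members after the filter on dim genes and 0 without the U87M2 line. Array weights, whose estimation stopped before it converged, gave 8 members in U87M2, 14 in U118 and 7 for differences between lines, with 6779 and 7825 of all genes called in U87M2 and U118. Without the 3 narrow-range arrays there were 7, 2 and 5, with 4816 and 608 genes. U118 had 2 members when its arrays were fitted alone. Without the U87M2 line the differences between lines had 0 human and 0 mouse members, and quantile normalization gave 2 mouse members. With a replicate block, U118 had 0 (30 of all genes) and the mouse differences between lines 0 (19 of all genes), and no other count of members moved by over 1.5 times. Deviations of same-numbered V-4084 and vehicle arrays correlated at -0.52 to 0.318 on human and at -0.349 to 0.297 on mouse arrays. They were 0.220, 0.011 and 0.318 in human U87M2 and -0.007, -0.284 and -0.520 in human DBM2. Deviations from a mean of 2 or 3 arrays constrain each other, so these values cannot settle whether the repeat numbers pair the arrays. The causes were not tested.

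With each array left out in turn, called members ran from 4 to 5 in human U87M2, 0 to 2 in U118, 0 to 4 in SF295 (4 without V-4084 repeat 1), 0 to 8 in DBM2 (8 without V-4084 repeat 3) and 0 to 0 in U251M2, from 3 to 11 for the average, 2 to 5 for differences between lines and 12 to 16 for vehicle levels. On mouse arrays they ran from 1 to 3 in U87M2, 0 to 0 in each other line, 0 to 1 for the average, 0 to 2 for differences between lines and 21 to 26 for vehicle levels. No named V-4084 difference changed sign. Where a group kept 1 array, it was assumed to vary like the others. Signal over background was not in the files, so the dim level is a coarse guide, and calls of dim genes are limited by it. Differences given as at least a value are differences of group means taken to that level. They make no allowance for the spread of the arrays and are no firm lower limits.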

Other observations

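Among probe sets outside the rule or naming several genes, vehicle levels differed between lines for the human probe set of CCL15 and CCL14 (adjusted p = 3.71e-06, limma over all probe sets) and for mouse Pf4 (adjusted p = 2.15e-06), a platelet and macrophage chemokine. Neither passed the test for V-4084 in any line. The probe set of CCL15 and CCL14 read at most 6.05 on any array, under the human dim level.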
